A study of Mus musculus with 11 samples.

Results

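Genes of mitosis and chromosome segregation were followed in the aortic arch of young mice that carry 1 mutant allele of Tgfbr2, which encodes a receptor for the growth factor TGF-beta. The group holds 50 genes chosen by name for their known part in cell division, with earlier results of these data known. They include mitotic kinases and cyclins, checkpoint and kinetochore proteins, kinesins, condensin subunits and cytokinesis proteins. Each of the 50 names matched 1 row among the 48709 mouse genes of the count table, and all 50 were among the 14757 genes abundant enough to be tested. RNA came from 11 arches taken at postnatal day 11. WT 1 to WT 5 were wild-type littermates (Tgfbr2 +/+) and Het 1 to Het 6 were heterozygous for the G357W substitution (Tgfbr2 G357W/+) and model type II Loeys-Dietz syndrome, a disease of aortic aneurysms. No animal was treated. Each library was taken as 1 animal, since the series counts 6 mutant and 5 wild-type mice.

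A cell that commits to division switches on a set of genes late in the cycle, so that their transcripts are abundant in dividing cells and scarce in resting ones. Cyclin-dependent kinase 1 with cyclins A and B starts mitosis, condensins compact the chromosomes, kinetochores tie them to spindle microtubules, a checkpoint holds the cell until all are attached, and the anaphase-promoting complex then releases the sister chromatids before the cell is cut apart by cytokinesis. In the aortic wall smooth muscle cells still divide after birth and become largely quiescent in the adult. In whole tissue, more dividing cells and more transcript per dividing cell cannot be told apart.

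Libraries held 13113467 to 19327935 counts (means of 15250000 in WT and 14670000 in Het). The 50 genes together took 6037 to 19008 counts in a library, and no member had a count of 0 in any of the 11. Levels are given as CPM, the counts relative to library size, scaled by TMM factors (trimmed mean of M values, 0.979 to 1.031). Tgfbr2 itself was at 41.3 ± 4.29 CPM (WT) and 38.98 ± 8.22 CPM (Het) (SD, n = 5 and 6), a log2 fold change of -0.09 ± 0.13 (SE) with an edgeR adjusted p of 0.789; counts per gene do not separate the alleles. The labels name smooth muscle and endothelial cells. Summed over 7 smooth muscle markers the level was 33590 to 38100 CPM in WT and 30460 to 41470 CPM in Het, and over 7 endothelial markers 358 to 483 CPM and 328 to 531 CPM. The labels used here do not give the sex of the mice. Xist, made by the inactive X chromosome, had at least 900 counts in WT 1 to WT 5, Het 1 and Het 2 and at most 10 in Het 3 to Het 6, which expressed the Y-linked gene Ddx3y at 86.4 to 110.5 CPM. No WT library stands beside those 4, so that for them sex and genotype cannot be told apart. WT 4 stood apart from the other WT libraries in the level of the mitosis genes, and counts that moved by over 1.5 times without it are given both ways. It was picked out by these same genes, and leaving out a WT library with high values raises their calls. Leaving out any other WT library lowered the count of members called, as given below.

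The members also share features of their promoters. Many late cell cycle genes are bound by the DREAM and MuvB complexes at a short element near the start of transcription, the cell cycle genes homology region (CHR), and by the activator NF-Y at CCAAT boxes upstream. RefSeq promoters on GRCm38.p6, each from 250 bases before to 50 bases after a gene's start, were present for 40 of the 50 members (42 promoters). The letters TTTGAA, the CHR core, were found on either strand in 33 of the 42 (78.6%) and in 17.9% of all 32851 promoters of the same length. CCAAT on either strand was found in 32 (76.2%) against 37.4% of all, and at least 2 CCAAT in 22 (52.4%) against 11.7%. Both were present in 28 of the 42 (66.7%) against 6.95% of all; the 2 matches overlapped in 1 member promoter. The letters TTCCCGC, a form of the E2F site that marks genes of DNA replication, were found in 1 member promoter (2.38%) and in 4.6% of all. These are matches of letters and not mapped binding sites.

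The position of the CHR letters was also shared. They began between 40 bases before and 50 bases after the start in 30 of the 42 member promoters (71.4%), against 4.39% of all promoters. In 7 members both elements lay within the 100 bases just upstream of the start, and these stretches are printed because they show both elements side by side. They are the less common arrangement: the CHR letters began in the 40 bases before the start in 10 of the 30 promoters, and in the other 20 they began only after it. Each is written 5′ to 3′ along the gene and ends 1 base before the start, with CCAAT (or ATTGG on the other strand) and TTTGAA (or TTCAAA) in capitals.
Cdk1, chr10:69352913-69353012, minus strand: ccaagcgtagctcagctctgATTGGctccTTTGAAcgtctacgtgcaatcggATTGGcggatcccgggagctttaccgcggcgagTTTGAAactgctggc
Top2a, chr11:99024190-99024289, minus strand: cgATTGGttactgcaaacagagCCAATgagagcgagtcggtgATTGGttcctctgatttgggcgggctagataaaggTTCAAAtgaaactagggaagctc
Ube2c, chr2:164769829-164769928, plus strand: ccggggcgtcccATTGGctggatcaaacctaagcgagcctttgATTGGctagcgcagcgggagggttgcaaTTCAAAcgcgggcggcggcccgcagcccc
Cdc20, chr4:118437344-118437443, minus strand: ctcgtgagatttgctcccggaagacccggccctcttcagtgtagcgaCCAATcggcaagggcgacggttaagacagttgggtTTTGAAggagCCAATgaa
Kif11, chr19:37376282-37376381, plus strand: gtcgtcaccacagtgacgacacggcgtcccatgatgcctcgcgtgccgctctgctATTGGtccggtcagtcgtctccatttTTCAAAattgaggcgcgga
Prc1, chr7:80294376-80294475, plus strand: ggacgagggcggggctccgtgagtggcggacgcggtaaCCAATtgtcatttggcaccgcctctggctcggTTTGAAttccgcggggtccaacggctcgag
Ckap2l, chr2:129297213-129297312, minus strand: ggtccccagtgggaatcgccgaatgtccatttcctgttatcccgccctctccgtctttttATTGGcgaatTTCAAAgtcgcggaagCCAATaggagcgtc
In Cdk1 the CHR nearest the start begins 15 bases before it, in Cdc20 18, in Kif11 19, in Top2a 23, in Ube2c 29 and in Prc1 and Ckap2l 30. These starts are those of RefSeq. In GENCODE M21, Cdk1 starts at 69352938 and Ube2c at 164769898, inside the printed stretches and ahead of these CHR letters. Whether the letters lie before or after the start therefore depends on the annotation. Counted from the CCAAT next upstream, the distance between the first letters of the 2 elements was 33 bases in Cdk1, 35 in Top2a and Cdc20, 32 in Prc1, 28 in Ube2c and 26 in Kif11, and 10 in Ckap2l.

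**Figure D1:**
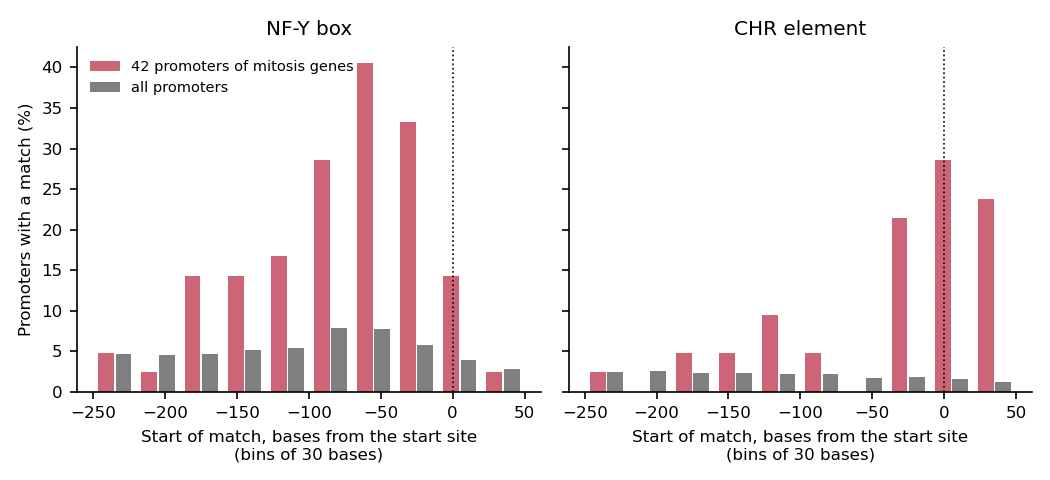
Share of promoters (vertical axis, percent) with a match to the NF-Y box (left) or the CHR element (right) beginning in each bin of 30 bases, by distance from the start site (horizontal axis, dotted line at the start). Red bars are the 42 promoters of mitosis genes and grey bars all 32851 promoters; the CHR matches of the mitosis genes gather in the 3 bins nearest the start (21.4%, 28.6% and 23.8%, against 1.75%, 1.58% and 1.16% of all).

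The design sets Het against WT arches to find what 1 mutant Tgfbr2 allele changes at this age. Mitosis genes were higher in Het. All 50 had a positive log2 fold change, as did 49.2% of all genes tested; 30 of the 50 rose past an adjusted p of 0.05 (edgeR's quasi-likelihood test, Benjamini-Hochberg over all genes tested) and none fell. Of all genes tested, 2.65% rose and 2.38% fell. DESeq2 called 37 members higher and 0 lower, against 3.99% and 3.89% of the genes it tested. None of the 50 was lower at an unadjusted p under 0.05, while 48 were higher at an unadjusted p under 0.05, as were 9.55% of all genes. The median log2 fold change of the members was 0.90, a 1.86-fold difference, and that of all genes tested was -0.0046; the members ranged from 0.45 (Incenp) to 1.48 (Mki67).

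Summed over the 50 genes, the level was 482.9, 464.0, 376.0, 832.9 and 451.3 CPM in WT 1 to WT 5. In Het 1 to Het 6 it was 745.8, 1009, 734.0, 1058, 1030 and 1109 CPM. The means were 521 ± 179 CPM (SD, n = 5) and 948 ± 165 CPM (SD, n = 6). The groups overlapped in 1 WT library: WT 4 lay above Het 1 and Het 3, and the other 4 WT libraries lay below every Het library. WT 3 was the lowest of the 11 libraries for 21 members, WT 2 for 12, WT 5 for 10 and WT 1 for 6, and a Het library, Het 3, for 1. The highest was always a Het library: Het 6 for 20 members, Het 4 and Het 5 for 11 each and Het 2 for 8.

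**Figure D2:**
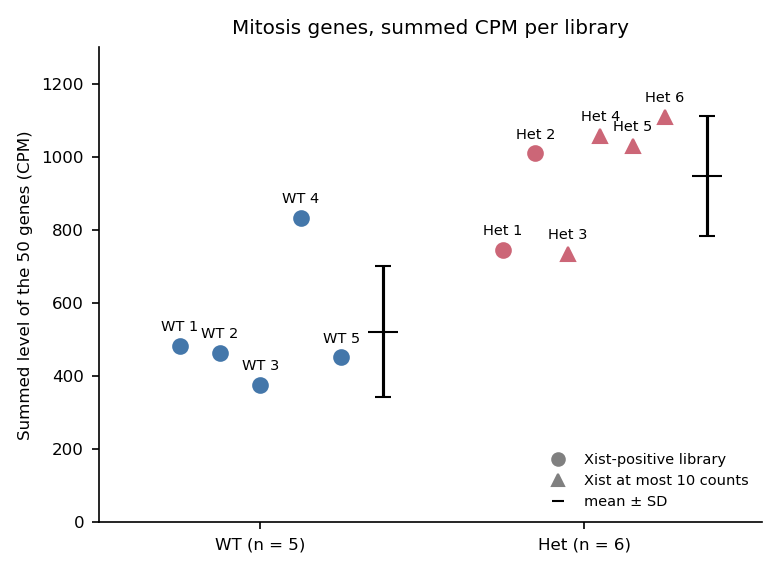
Summed level of the 50 mitosis genes (vertical axis, CPM) in each WT and Het library; circles are Xist-positive libraries, triangles are libraries with at most 10 Xist counts, and black bars are the mean ± SD of each group. WT 4 (832.9 CPM) lies above Het 1 and Het 3 (745.8 and 734.0 CPM), and the other WT libraries lie at 376.0 to 482.9 CPM.

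All 6 Het libraries lay above all 5 WT libraries for 6 of the 50 members, against 2.41% of all genes tested: Bub1b, Ttk, Ckap2l, Anln, Racgap1 and Ncapg. Het 2, 4, 5 and 6 carried the largest values, and Het 1 and Het 3 lay nearer to WT 4.

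**Figure D3:**
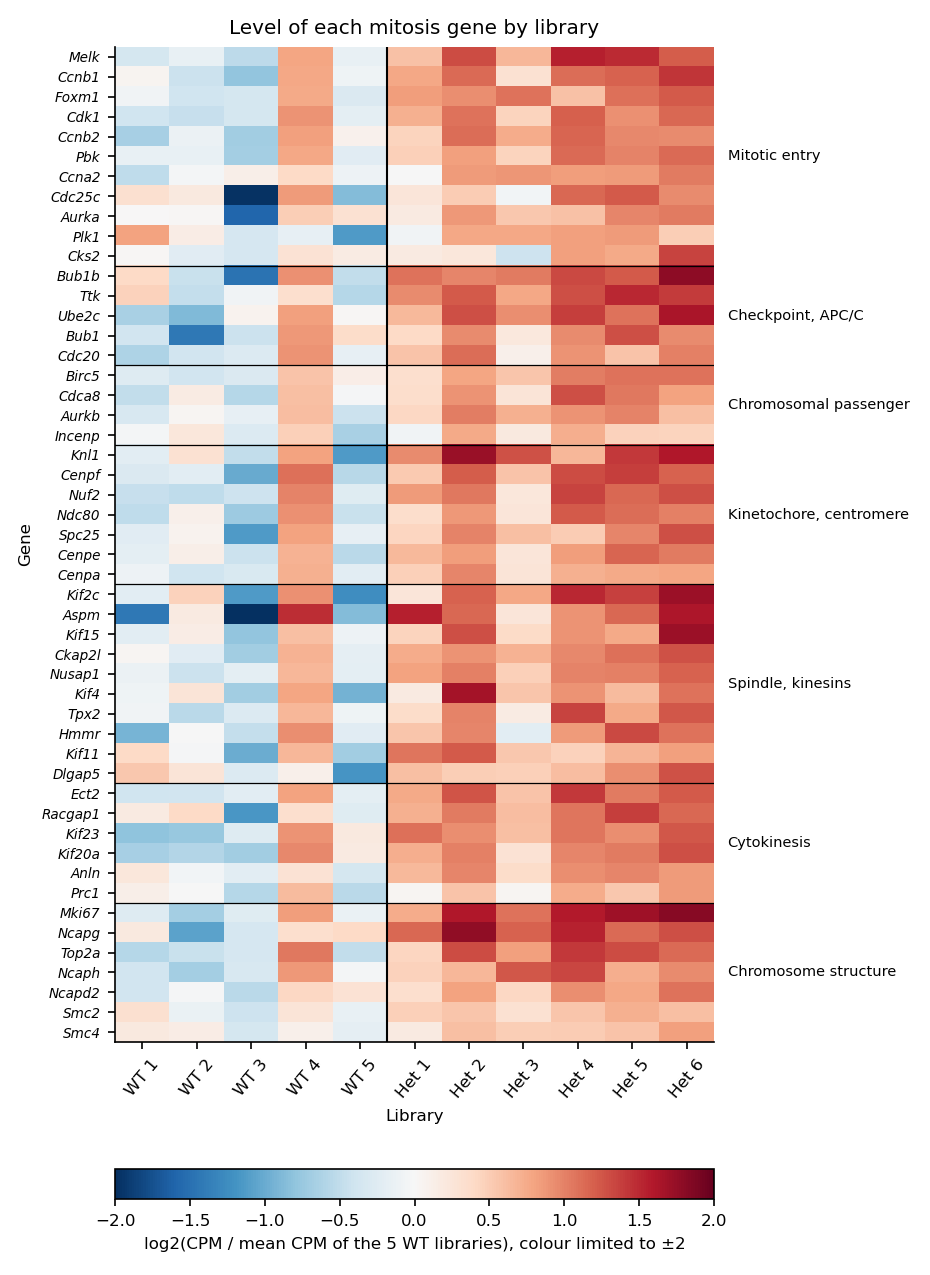
Level of each of the 50 genes (rows, grouped by role) in each library (columns; the vertical line parts WT from Het), as log2 of the CPM over the mean of the 5 WT libraries, with the colour limited to ±2. WT 4 is above the WT mean in most rows, and Het 2, 4, 5 and 6 are the reddest columns.

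Of 7 genes of chromosome structure, all 7 rose (median log2 fold change 0.93). Mki67 (ENSMUSG00000031004, 135689784 to 135716361 on chromosome 7 of GRCm38) encodes Ki-67, which coats mitotic chromosomes and serves as the standard marker of dividing cells. Its level was 7.94, 5.90, 7.96, 16.9 and 8.60 CPM in WT 1 to WT 5. In Het its lowest, median and highest values were 15.9, 28.6 and 33.5 CPM. WT 4 alone overlapped with Het, and the log2 fold change was 1.48 ± 0.25 (SE, adjusted p = 0.00339), the highest of the group. Top2a (ENSMUSG00000020914, 98992943 to 99024189 on chromosome 11), the topoisomerase that untangles sister chromatids, was at 17.8, 19.4, 20.9, 54.97 and 18.8 CPM in WT 1 to WT 5. In Het it was at 35.4, 61.5 and 70.2 CPM (lowest, median, highest). Here WT 4 stood at more than the level of Het 1 and Het 3, and the difference, 1.11 ± 0.30 with an adjusted p of 0.0481, lay just inside the threshold. Without WT 4 the adjusted p of Top2a was 1.40e-04, the smallest of the 50. Its call held in only 2 of the 11 fits that left out 1 library. Over those 11 fits its largest adjusted p was 0.133.

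The other 5 members of that set encode subunits of condensin, the ring that compacts chromosomes. Ncapg, a regulatory subunit of condensin I, was at 2.58, 1.07, 1.80, 2.87 and 2.99 CPM in WT 1 to WT 5 and at 4.98, 5.34 and 7.71 CPM in Het (lowest, median, highest), with no overlap between the groups (log2 fold change 1.37 ± 0.26, adjusted p = 0.00544). The other subunits specific to condensin I differed less: Ncaph, the kleisin that closes the ring, by 0.93 ± 0.25 (adjusted p = 0.0434) and Ncapd2 by 0.76 ± 0.18 (adjusted p = 0.0262). The ATPase subunits Smc2 and Smc4, which condensin I shares with condensin II, had among the smallest differences of the 50. Smc4 was at 44.6, 43.2, 30.5, 41.8 and 34.5 CPM in WT 1 to WT 5 and at 44.3, 56.7 and 68.5 CPM in Het, a log2 fold change of 0.54 ± 0.12 with an adjusted p of 0.0176. Smc2 had 0.54 ± 0.14 (adjusted p = 0.0351).

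Of 11 regulators of mitotic entry, 7 rose and 4 did not pass (median 0.86). Cdk1 (ENSMUSG00000019942, 69335146 to 69352938 on chromosome 10), the kinase that drives mitosis, was at 18.1, 17.2, 18.6, 44.2 and 20.7 CPM in WT 1 to WT 5. In Het it was at 32.4, 47.7 and 54.5 CPM (lowest, median, highest), and WT 4 lay above Het 1 and Het 3. Its log2 fold change was 0.94 ± 0.23 (adjusted p = 0.0311). The cyclins that activate it also rose: Ccnb1 by 1.04 ± 0.25 (adjusted p = 0.0261), Ccnb2 by 0.92 ± 0.24 (0.0372) and Ccna2 by 0.78 ± 0.21 (0.0409). Foxm1, the transcription factor of late cell cycle genes, went from 2.45, 1.94, 2.002, 4.34 and 2.09 CPM in WT 1 to WT 5 to 3.85, 5.17 and 6.002 CPM in Het (lowest, median, highest), with only WT 4 reaching into the Het range (log2 fold change 0.98 ± 0.24, adjusted p = 0.0276). The kinases Melk and Pbk, both markers of proliferation, rose by 1.19 ± 0.25 and 0.86 ± 0.22 (adjusted p = 0.0120 and 0.0355).

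The 4 regulators that did not pass were Cdc25c, the phosphatase that activates CDK1 (0.75 ± 0.39, adjusted p = 0.319), Cks2, a small CDK-binding protein (0.60 ± 0.29, 0.276), and the mitotic kinases Plk1 (0.63 ± 0.28, 0.224) and Aurka (0.74 ± 0.27, 0.144). Plk1 did not follow the order of the libraries seen for most members: its highest WT value was that of WT 1, at 7.48, 4.76, 3.39, 3.82 and 1.94 CPM in WT 1 to WT 5. In Het it was at 4.06, 7.28 and 7.69 CPM (lowest, median, highest).

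Of 5 genes of the spindle checkpoint and the anaphase-promoting complex, 3 rose, at a median over the 5 of 1.20. Ttk encodes the checkpoint kinase MPS1. It was at 4.90, 2.55, 3.39, 4.48 and 2.39 CPM in WT 1 to WT 5 and at 6.03, 8.49 and 10.02 CPM in Het (lowest, median, highest), so that every Het library lay above every WT library (log2 fold change 1.21 ± 0.22, adjusted p = 0.00480). Bub1b, which encodes the checkpoint protein BUBR1, was at 8.34, 4.62, 2.26, 11.8 and 4.49 CPM in WT 1 to WT 5 and at 12.4, 14.1 and 21.9 CPM in Het, again without overlap (1.28 ± 0.32, adjusted p = 0.0330). Ube2c, the ubiquitin-conjugating enzyme of the complex, rose by 1.20 ± 0.27 (adjusted p = 0.0168). Its neighbour Tnnc2, whose exons cover 22.8% of its exon length on the other strand, was at 0 to 0.154 CPM in all libraries. The checkpoint kinase Bub1 and the activator Cdc20 had 0.85 ± 0.32 and 0.75 ± 0.27 (adjusted p = 0.150 and 0.124). All 5 passed without WT 4.

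The chromosomal passenger complex corrects faulty attachments and later guides cytokinesis, and 3 of its 4 members rose (median 0.81). Its kinase Aurkb was at 6.49, 8.31, 7.24, 12.5 and 6.05 CPM in WT 1 to WT 5. In Het it was at 10.8, 14.2 and 16.5 CPM (lowest, median, highest), with WT 4 inside the Het range (log2 fold change 0.79 ± 0.19, adjusted p = 0.0252). Survivin (Birc5) rose by 0.85 ± 0.19 and borealin (Cdca8) by 0.83 ± 0.23 (adjusted p = 0.0174 and 0.0476). The scaffold Incenp had the smallest difference of the 50, at 4.33 to 9.41 CPM in WT and 6.43 to 11.4 CPM in Het (0.45 ± 0.21, adjusted p = 0.257).

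At the kinetochore and centromere, 3 of 7 members rose, and the 4 others had adjusted p of 0.0648 to 0.0955 (median of the 7, 0.86). Knl1, the scaffold of the outer kinetochore, was at 1.13, 1.61, 0.924, 2.28 and 0.598 CPM in WT 1 to WT 5 and at 2.08, 3.31 and 4.32 CPM in Het (lowest, median, highest). WT 4 was the 1 WT library above the lowest Het library, and the log2 fold change was 1.32 ± 0.33 (adjusted p = 0.0321); with 8 to 64 counts it was among the least sampled members. Nuf2, a subunit of the NDC80 complex that binds microtubules, rose by 1.04 ± 0.28 (adjusted p = 0.0433) and the kinetochore motor Cenpe by 0.83 ± 0.23 (0.0475). The subunits Ndc80 and Spc25 of the same complex did not pass, with Ndc80 at 4.83 to 15.1 CPM in WT and 9.48 to 18.8 CPM in Het (0.86 ± 0.28, adjusted p = 0.0955) and Spc25 at 3.59 to 13.9 CPM in WT and 10.7 to 19.3 CPM in Het (0.84 ± 0.27, 0.0853). Cenpf, a large kinetochore protein, was at 6.62, 6.97, 4.005, 17.3 and 5.53 CPM in WT 1 to WT 5. Its Het values were 11.6, 18.6 and 21.02 CPM (lowest, median, highest), and its log2 fold change was 1.08 ± 0.31 (adjusted p = 0.0648). The centromeric histone Cenpa had 0.68 ± 0.20 (0.0664). All 7 passed by DESeq2. All 7 also passed without WT 4, and none of them passed without WT 1, WT 2, WT 3 or WT 5 in turn.

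Among 10 spindle proteins and kinesins 3 rose (median of the 10, 0.92). Nusap1, which bundles spindle microtubules, was at 25.7, 20.8, 24.4, 44.4 and 24.4 CPM in WT 1 to WT 5 and at 39.1, 55.7 and 63.1 CPM in Het (lowest, median, highest; log2 fold change 0.93 ± 0.18, adjusted p = 0.00602). Ckap2l, a spindle protein, was at 15.1, 12.5, 9.09, 23.6 and 12.9 CPM in WT 1 to WT 5. In Het it was at 23.8, 27.8 and 35.5 CPM, above every WT library (0.96 ± 0.20, adjusted p = 0.00971). The spindle assembly factor Tpx2 rose by 0.88 ± 0.24 (adjusted p = 0.0474). Of the kinesins, the microtubule depolymerase Kif2c had 1.22 ± 0.37 (adjusted p = 0.0726), and Kif15, Kif4 and Kif11, which slide or order spindle microtubules, had 1.00 ± 0.32, 0.92 ± 0.32 and 0.83 ± 0.28 (0.0830, 0.113 and 0.105). Hmmr (0.85 ± 0.31), Dlgap5 (0.76 ± 0.26) and the spindle pole protein Aspm (1.19 ± 0.52) did not pass either (adjusted p = 0.136, 0.107 and 0.221). Aspm was at 0.861, 2.61, 0.411, 6.39 and 1.27 CPM in WT 1 to WT 5, and WT 4 was the 1 WT library inside its Het range of 2.72 to 7.08 CPM. All 10 had an unadjusted p under 0.05, and 9 of the 10 passed without WT 4.

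Cytokinesis genes showed 4 calls among 6 (median 0.96). Anln, the actin-binding scaffold anillin of the cleavage furrow, had the smallest adjusted p of the 50. It was at 35.8, 29.2, 26.2, 37.2 and 23.8 CPM in WT 1 to WT 5 and at 39.5, 56.4 and 59.97 CPM in Het (lowest, median, highest), without overlap (log2 fold change 0.81 ± 0.14, adjusted p = 0.00300). Racgap1, a subunit of centralspindlin, was at 9.004, 10.5, 3.54, 10.1 and 6.73 CPM in WT 1 to WT 5 and at 12.2, 16.6 and 20.9 CPM in Het, also without overlap (1.03 ± 0.24, adjusted p = 0.0190). Its partner, the kinesin Kif23, rose by 1.00 ± 0.26 (adjusted p = 0.0386), and the exchange factor Ect2, which centralspindlin recruits to activate RhoA, by 1.08 ± 0.24 (0.0142). Prc1, which bundles the central spindle, was at 29.1 to 67.1 CPM in WT and 44.5 to 77.5 CPM in Het (0.50 ± 0.21, adjusted p = 0.213). The mitotic kinesin Kif20a had 0.93 ± 0.29 (adjusted p = 0.0849). Exons of the neighbour Cdc23 cover 29.3% of the exon length of Kif20a on the other strand and was at 156.5 to 199.4 CPM; the library kit was unstranded per the labels, so the counts of Kif20a are uncertain. Among the other members, exons of a gene on the opposite strand cover 15.1% of Kif4 (Pdzd11), 13.4% of Ncapg (Lcorl), 12.7% of Cdc25c (Gm3550), 12.5% of Ccna2 (Exosc9) and 11.1% of Prc1 (Rccd1), with the same uncertainty. Over the 11 libraries Pdzd11 was at 64.75 to 104.3 CPM, Lcorl at 2.38 to 6.06, Exosc9 at 19.8 to 31.7 and Rccd1 at 10.4 to 33.6 CPM. Without WT 4 all 6 cytokinesis genes passed.

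**Figure D4:**
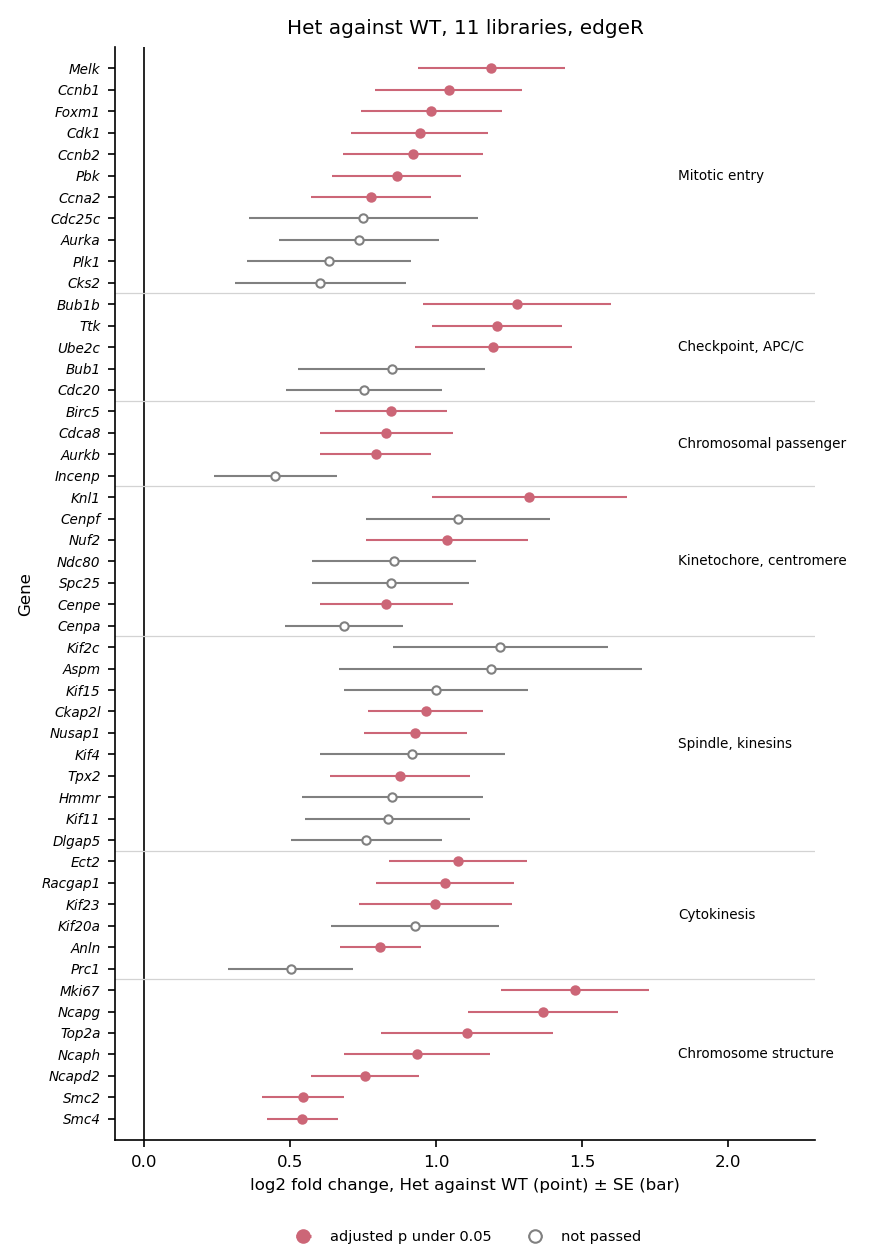
Log2 fold change of Het against WT (horizontal axis; point, with the SE as a bar) for each of the 50 genes (vertical axis, grouped by role), from edgeR in 11 libraries; filled red points passed an adjusted p of 0.05 and open grey points did not. All 50 points lie to the right of 0, from 0.45 to 1.48.

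Levels between genes were compared per kilobase of exon (RPKM, from GENCODE M21 exon lengths, scaled CPM). In Het libraries the mean level was highest for Pbk, at 16.4 RPKM, followed by Ccnb2 at 13.8, Nusap1 at 13.1 and Smc4 at 10.9 RPKM. In WT the same 4 genes had means of 9.03, 7.30, 6.88 and 7.47 RPKM. The lowest mean levels in Het were those of Kif15 (0.305 RPKM), Knl1 (0.381) and Aspm (0.447). Knl1, near the bottom of this order, was among the 30 that rose, and Prc1, with a mean of 7.42 RPKM in Het, was not.

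Members with and without the CHR letters were both called. Of 31 members with the CHR letters in a promoter, 17 rose, at a median log2 fold change of 0.94. Of 9 whose promoters lacked these letters 7 rose (median 0.93), and of 10 with no promoter sequence 6 rose (median 0.78). The difference between these sets was not tested.

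The number of members called depended on single libraries. Without WT 4, 44 of the 50 rose (2.96% of all genes). Leaving out any one of the other WT libraries lowered the count, to 14 without WT 1, 11 without WT 2, 12 without WT 3 and 15 without WT 5. Of all genes tested, 561, 458, 525 and 799 were then called in either direction, against 742 in the 11 libraries. The count of members was 13 without Het 2 or Het 6, 14 without Het 4, 12 without Het 5, and 27 without Het 1 or Het 3. Genes of all called in either direction were 640, 502, 666, 520, 511 and 535 without Het 1 to Het 6 in turn. Without both WT 1 and WT 2, 9 members rose (1.57% of all genes). In each of these fits all 50 members had a positive log2 fold change. The members that passed in all 11 fits that left out 1 library were 11: Melk, Ttk, Ube2c, Nusap1, Ckap2l, Anln, Ect2, Racgap1, Mki67, Ncapg and Smc4.

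No member passed once the sex of the libraries was taken into account in edgeR. With a score of Y-linked genes minus Xist as a covariate 0 of 50 passed (0.413% of all genes rose), 30 were higher at an unadjusted p under 0.05 (5.5% of all genes), and DESeq2 with the same score called 5: Ttk, Nusap1, Anln, Mki67 and Ncapg (0.929% of all genes rose). All 50 kept a positive sign, the median was 0.77 and the median SE of a member was 0.32, against 0.25 without the score. Ncapg came closest in edgeR, at 1.49 ± 0.33 (adjusted p = 0.0539), followed by Anln at 0.77 ± 0.19 (0.0764), and Mki67 had 1.19 ± 0.31 (0.115). When Het 1 and Het 2 were set against the 5 WT libraries, leaving 7 that express Xist, edgeR again called 0 (0.122% of all genes rose) and 30 had an unadjusted p under 0.05 (4.7%). The median was 0.83 with all 50 positive, and Anln had 0.83 ± 0.19 (adjusted p = 0.132) and Mki67 1.25 ± 0.36 (0.256). The Xist-positive libraries are part of the 11 and are not an independent test.

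Both kinds of Het library lay above WT on average. Against the same 5 WT libraries, the median difference in mean log2 CPM over the 50 members was 0.89 for Het 1 and Het 2 and 1.01 for Het 3 to Het 6, with all 50 positive in each. Het 1 and Het 2 both lay above every WT library for 13 members (7.59% of all genes), and Het 3 to Het 6 did for 12 (3.79%). Set against each other, Het 1 and Het 2 were lower than Het 3 to Het 6 for 40 members, at a median difference of -0.17. Het 1 and Het 2 differed from each other: their summed levels were 745.8 and 1009 CPM.

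The authors' column names carry a 6 or a 7 whose meaning no label states; the 7 stood on 4 WT and 2 Het libraries. With it as a covariate 14 members rose (1.4% of all genes; median 1.03). Among libraries with a 7, 2 Het against 4 WT, the median difference of the members was 0.80 and all 50 were positive, as were 51.1% of all genes. Among those with a 6, 4 Het libraries stood against WT 3 alone, the lowest WT library, at a median of 1.35.

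Other genes of mitosis, 97 that are no members and were also listed with earlier results of these data known, gave fewer calls than the members. Of these 12 rose (2.65% of all genes tested), none fell and 85 did not pass. A positive log2 fold change was found in 81 (49.2% of all genes), and the median was 0.40. At an unadjusted p under 0.05, 44 were higher (9.55% of all genes) and 2 lower. DESeq2 called 26 higher (3.99% of the genes it tested) and 0 lower. Without WT 4, 24 rose (2.96% of all genes). With the sex score 0 passed in edgeR, with 20 higher at an unadjusted p under 0.05 (5.5% of all genes). DESeq2 with that score called 1 (0.929% of all genes rose). Of 6 further cytokinesis genes 2 rose: Shcbp1, at 7.48 ± 3.54 CPM (WT) and 16.2 ± 2.93 CPM (Het) (1.12 ± 0.23, adjusted p = 0.0113), and the citron kinase Cit, at 14.9 ± 4.47 CPM (WT) and 31.02 ± 8.27 CPM (Het) (1.06 ± 0.21, 0.00872). Of 21 other spindle genes 5 rose, among them the spindle proteins Spag5 (1.23 ± 0.25, 0.0103) and Ckap2 (1.05 ± 0.23, 0.0128). Of 25 other kinetochore and centromere genes, 24 were higher in Het, at a median of 0.59, and 1 passed; 8 passed without WT 4 and 6 by DESeq2. The 1 was Spc24, the partner of Spc25 in the NDC80 complex, at 8.08 ± 3.12 CPM (WT) and 16.5 ± 2.91 CPM (Het) (1.04 ± 0.21, adjusted p = 0.00927); Ska3, a microtubule coupler, came next (1.01 ± 0.29, 0.0539).

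Genes of mitotic entry and exit and of the checkpoint gave fewer calls outside the group than within it. Of all genes tested 2.65% rose, and in lists as short as these no call at all lies near that share. Of 14 entry and exit genes 3 rose (median 0.28), including the securin Pttg1, which holds back separase, at 34.6 ± 12.1 CPM (WT) and 61.9 ± 14.3 CPM (Het) (0.84 ± 0.20, adjusted p = 0.0243), and Pimreg (0.83 ± 0.20, 0.0261). Of 9 other checkpoint genes Kntc1, a subunit of the RZZ complex, was the 1 that rose (1.59 ± 0.37, 0.0212), and its partner Zwilch had 0.74 ± 0.29 (0.174). Cohesin is the ring that holds sister chromatids together and also folds chromatin in resting cells. Of 16 genes of condensin II and cohesin none passed in edgeR, with a median of 0.12, and 1 rose without WT 4. At an unadjusted p under 0.05, 4 were higher and 1 lower, and DESeq2 called 2 higher. The cohesin subunit Rad21 and the cohesin acetyltransferase Esco2 came nearest (0.40 ± 0.12 and 0.97 ± 0.28, adjusted p = 0.0585 and 0.0592). None of 6 genes of the MuvB complex and its partner B-Myb passed in edgeR, at an unadjusted p under 0.05 or by DESeq2 (median 0.03); the 2 with the smallest p were Lin9 (0.39 ± 0.21, 0.341) and Rbbp4 (-0.16 ± 0.09, 0.370).

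DNA replication genes, which act earlier in the cycle, showed 8 calls among 37, all higher in Het, at a median of 0.44. Of all genes tested 2.65% rose. Without WT 4 there were 14 calls (2.96% of all genes rose), and DESeq2 made 13 (3.99%). As for the mitosis genes, none passed in edgeR with the sex score or in the Xist-positive libraries, where 11 and 10 were higher at an unadjusted p under 0.05; DESeq2 with the score called 1. The replication factor Mcm10 was at 2.51 ± 0.957 CPM (WT) and 7.12 ± 1.63 CPM (Het) (1.51 ± 0.27, adjusted p = 0.00361) and the helicase subunit Mcm5 at 29.8 ± 7.51 CPM (WT) and 49.1 ± 5.29 CPM (Het) (0.72 ± 0.15, 0.00883). Of 11 tested D cyclins, their kinases and CDK inhibitors none passed in edgeR or DESeq2, with 2 higher and 3 lower at an unadjusted p under 0.05 and a median of 0.04. The kinase Cdk6 was at 263 ± 67.02 CPM (WT) and 344 ± 39.6 CPM (Het) (0.39 ± 0.14, 0.141), and cyclin D2 (Ccnd2) at 547 ± 147 CPM (WT) and 408 ± 66.6 CPM (Het) (-0.43 ± 0.16, 0.152).

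Markers of other cell types that divide or surround the vessel were read beside the mitosis genes. The thymus lies next to the arch, and summed over 10 thymocyte markers the level was 0.402 to 7.61 CPM in WT and 1.08 to 21.5 CPM in Het, with the 2 highest values in Het 3 (21.5 CPM) and Het 6 (16.2 CPM). Het 3 was the lowest and Het 6 the highest Het library in mitosis genes. All 4 tested thymocyte markers had a positive log2 fold change (median 0.92), but none passed in edgeR, at an unadjusted p under 0.05 or by DESeq2. The same held for the 4 tested of 6 T cell markers (median 0.81), which summed to 4.15 to 9.94 CPM in WT and 3.24 to 30.6 CPM in Het, highest in Het 3. With the thymocyte score as a covariate 24 members rose (2.45% of all genes; median 0.90), and without Het 3 and Het 6 10 rose (1.49%; median 0.94). Summed over 6 leukocyte markers the level was 14.7 to 40.4 CPM in WT and 17.8 to 48.0 CPM in Het. With a leukocyte score as a covariate 27 members rose (2.76% of all genes, median 0.90). WT 4 had the highest sum of leukocyte markers in WT, and also the highest of macrophage, endothelial, fibroblast and red cell markers. Its sums of smooth muscle, skeletal muscle and epithelial markers were the lowest of WT. Among Het libraries, Het 4 had the lowest sum of leukocyte markers (17.8 CPM).

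Red cell markers were lower in Het on average: 7 genes, led by the globin Hbb-bs, summed to 670 to 1570 CPM in WT and 379 to 909 CPM in Het, and 4 of the 6 tested were lower at an unadjusted p under 0.05, though none passed in edgeR and 1 did in DESeq2. Of 7 granulocyte progenitor markers Prtn3 was at 0 in all libraries, and the sum was 0.596 to 8.73 CPM in WT and 0.538 to 8.43 CPM in Het. Skeletal muscle markers summed to 20.8 to 41.1 CPM in WT and 8.83 to 16.9 CPM in Het, without overlap, but 2 of the 4 tested had a positive log2 fold change and Tnnt3 was the 1 that fell; without Tnnt3 the sums were 3.71 to 6.47 CPM in WT and 3.09 to 6.47 CPM in Het. Epithelial markers summed to 219 to 324 CPM in WT and 88.1 to 156.6 CPM in Het, also through 1 gene, the keratin Krt18, which fell; the others summed to 1.75 to 3.24 CPM and 1.30 to 2.60 CPM. Chondrocyte markers did not overlap either, at 13.8 to 21.6 CPM in WT and 9.90 to 12.8 CPM in Het, with all 5 tested lower and Sox9 past the threshold. Among markers of the vessel wall, 1 of 7 smooth muscle genes (Cnn1) and 1 of 6 fibroblast genes (Pi16) fell. Brown fat markers, 6 genes, summed to 752 to 2722 CPM in WT and 332 to 2078 CPM in Het, and 1 of them (Dio2) rose. With the sex score 1 brown fat marker was called higher in edgeR and 1 epithelial marker lower. None was then called lower among the skeletal muscle, chondrocyte, smooth muscle and fibroblast markers. Sox9, Cnn1, Pi16 and Dio2 are named because they passed, a choice made after their values were seen. The part of these cell types in the difference of the mitosis genes was not tested beyond the scores named above.

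**Figure D5:**
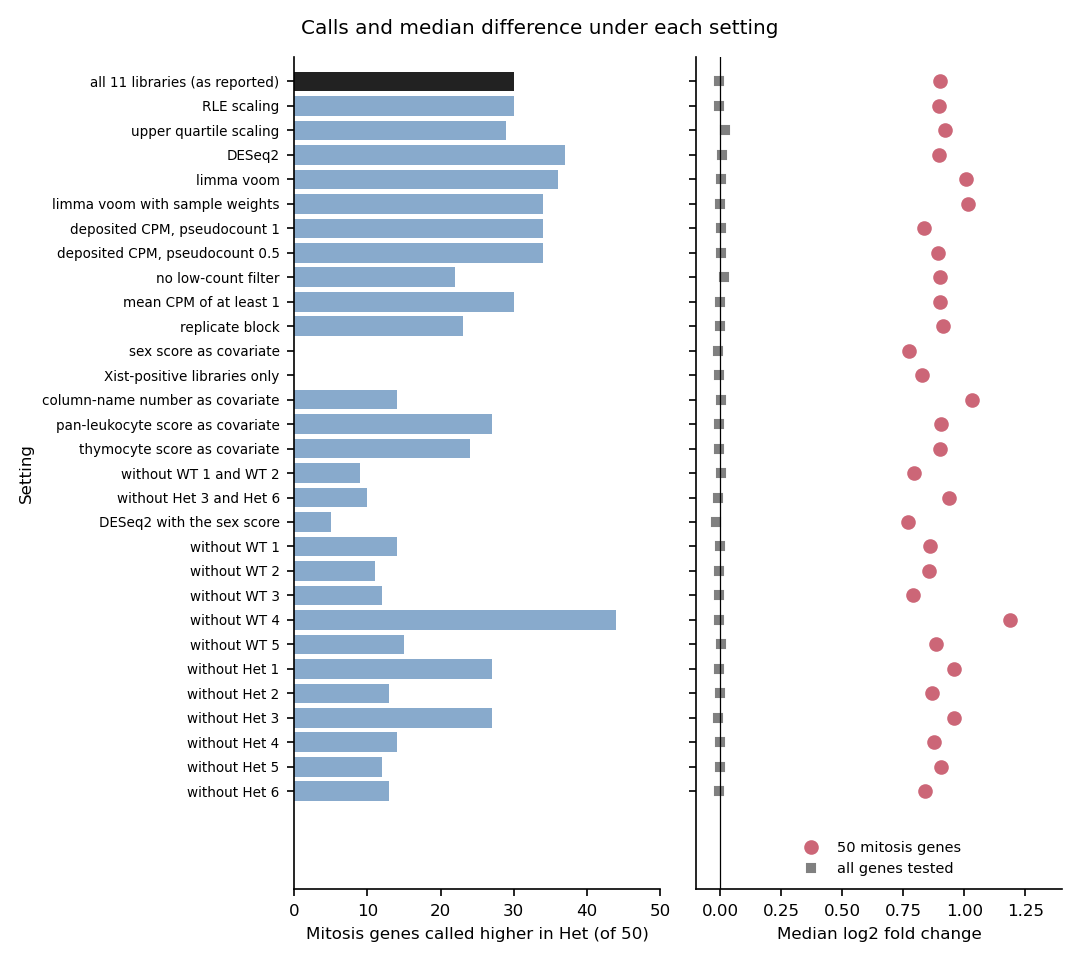
Number of the 50 mitosis genes called higher in Het (left, bars) and median log2 fold change of the 50 (right, red points) and of all genes tested (right, grey squares) under each setting (vertical axis); the black bar is the fit reported here. The count ranges from 0 with the sex score or in Xist-positive libraries to 44 without WT 4, and the median of the 50 stays between 0.77 and 1.19.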

How the data were processed

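Bulk RNA-seq of 11 aortic arches (5 WT, 6 Het) was analysed from the raw counts per gene that the authors deposited. A second deposited table holds a normalized signal, CPM that the authors scaled by TMM factors, as its name states; it served in 2 alternatives. STAR 2.5.2a, DESeq2, edgeR, limma and GRCm38 are named in the submitters' processing notes; the counting program and the gene annotation it used are not given in the sources here. Here, 24 rows that are no mouse gene (4 to 11 counts per library) were left out. Low genes were removed with filterByExpr (minimum count 10, minimum total 15), and edgeR 4.0.16 in R 4.3.3 (TMM, robust quasi-likelihood fit, biological coefficient of variation 0.215) compared Het with WT, with Benjamini-Hochberg adjustment at 0.05. The SE was taken as the log2 fold change over the square root of its F value. The fit was tested on simulated data. No 2 libraries of the same group were alike within sampling noise (25 pairs, smallest chi-square per degree of freedom 10.9). Pairs of a WT and a Het library were not compared in this way. The sex score is the level of Y-linked genes minus Xist, on the log2 scale. The leukocyte and thymocyte scores are the mean log2 CPM (prior count 2) of the tested markers, 6 of 6 and 4 of 10.

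Members and lists were chosen with earlier results of these data known. Named were all 50 members, and of each further list the 2 tested genes with the smallest p. Alternatives were DESeq2 1.42.0, limma 3.58.1, other scalings and filters, covariates and left-out libraries. Promoter sequences are from RefSeq. P-values measure the spread between these 11 libraries.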

Additional observations from a re-analysis of the deposited data

Results flagged for a closer look

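In each group, the highest and the lowest library of every member were compared with the rest by Dixon's ratio of the gap to the range at its 95% critical value. Of 100 groups, 15 passed it, and chance gives about 1 in 20. In 13 of them the library was WT 4, and always as the highest of WT. Its value, against the next highest WT library, is given for Cdk1 (44.2 against 20.7 CPM), Foxm1 (4.34 against 2.45 CPM), Melk (8.60 against 4.49 CPM), Pbk (27.8 against 14.6 CPM), Cdc20 (9.48 against 4.56 CPM) and Cenpa (14.3 against 8.08 CPM). The others were Cenpf (17.3 against 6.97 CPM), Nuf2 (16.3 against 6.95 CPM), Nusap1 (44.4 against 25.7 CPM), Ect2 (9.11 against 4.56 CPM), Mki67 (16.9 against 8.60 CPM), Top2a (55.0 against 20.9 CPM) and Ncaph (19.3 against 10.2 CPM). All 13 come from 1 library, so they are not separate events.

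Among Het libraries, Ccna2, the cyclin A2 gene, was low in Het 1 at 4.95 CPM, with the next lowest at 8.85 CPM. Bub1b was high in Het 6 at 21.9 CPM, with the next highest at 15.8 CPM.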

How the results depend on the processing

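All 50 mitosis genes had a positive log2 fold change in each of the 29 alternatives run, and no member was called lower in any. The reported fit called 30 members, 742 genes of all and 12 other mitosis genes. DESeq2 called 37, 1297 and 26. With the sex score the counts were 0, 122 and 0, in Xist-positive libraries 0, 34 and 0, and 14, 415 and 7 after adjusting for the number in the column names. Leaving out both WT 1 and WT 2 gave 9, 432 and 2. The settings added after seeing the data gave 10, 411 and 6 without Het 3 and Het 6, and 5, 327 and 1 for DESeq2 with the sex score. Leaving out 1 library at a time gave 11 to 44 members, 458 to 853 genes of all, 7 to 24 other mitosis genes and a median of the members of 0.79 to 1.19. Where covariates or fewer libraries lowered a count, fewer residual degrees of freedom were available, and their part in it was not tested. RLE and upper quartile scaling called 30 and 29 members (741 and 755 genes of all), and no filter on low counts called 22 (667 genes of all).

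The labels do not say whether the replicate numbers pair the samples. The correlations of same-numbered WT and Het libraries were -0.031, 0.059, 0.03, -0.033 and -0.214, and no library correlated best with its own number. These values give no sign of pairing but cannot exclude it. With the replicate number as a block, in which Het 6 has no partner, 23 members were called, 20 of them among the 30, and 329 genes of all. The median SE of a member was then 0.21, against 0.25 without the block.

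Depth limits the rarest members most: Knl1 and Aspm had as few as 8 counts in a library, and 3 counts correspond to 0.155 to 0.229 CPM.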
